A study of Mus musculus with 8 samples.

Results

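The genes described here are 34 genes of glucose breakdown and oxygen sensing in mouse regulatory T (Treg) cells. They were taken by gene symbol from a list of 35 glycolysis, pentose phosphate and hypoxia genes, out of 22432 genes in the deposited expression table. All 34 passed the filter on low values and were tested among 13797 genes, and Pkm, the remaining name on the list, was not analysed here. Treg cells are the Foxp3-expressing CD4 T cells that restrain immune responses. The study asked what loss of the alternative NF-κB pathway does to their transcriptome. All cells were from C57Bl/6 mice carrying Foxp3-CRE-YFP, which makes Cre recombinase and a yellow fluorescent reporter in Foxp3-expressing cells, so that floxed alleles are deleted in those cells. WT cells carried Foxp3-CRE-YFP with no floxed allele named. RelB-KO cells also carried RelB F/F, Nfkb2-KO cells carried nfkb2 F/F, and DKO (double knockout) cells carried both. YFP-positive cells were sorted from pooled lymph nodes and spleen, and the ages of the mice are not given. Each genotype had 2 libraries, which makes 8 in all. Every culture was stimulated for 16 h with IL-2 (10 ng/ml), plate-bound anti-CD3 (5 µg/ml), anti-CD28 (1 µg/ml) and agonist anti-OX40 (2 µg/ml), so no unstimulated cells were measured.

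Glycolysis splits glucose into pyruvate, which is turned into lactate or passed to the mitochondria, and the pentose phosphate pathway branches from it to make NADPH and ribose. The transcription factor HIF raises many genes of this route when oxygen is short. In oxygen, its alpha subunit is hydroxylated by the prolyl hydroxylases of the Egln genes and then destroyed, and Egln3 and Pdk1 are themselves known HIF targets. T cells stimulated through their receptor and CD28 take up more glucose and depend on MYC for much of this change.

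Values are the deposited log2 expression values, given for each genotype as replicate 1 and then replicate 2. The file calls them log2 RPKM. Weakly expressed genes can hold nearly constant values, as Eno1 does at 0.63 to 0.68 in all 8 libraries, and scaling by length was not checked. Each gene is therefore compared only with itself. Differences are log2 differences of the genotype means ± the standard error of the linear model limma, and understate the change of weakly expressed genes. Adjusted p-values are by the Benjamini-Hochberg method over all 13797 genes tested, and those under 0.05 were called. The labels do not say whether replicates came from separate animals, so the p-values reflect the spread between libraries alone, which may be technical. The labels do not say what libraries with the same replicate number share. Pairing by number was inferred from these data, where replicate differences correlated across genes between genotypes at 0.81 to 0.89. The fit with replicate number as a block is given beside a result where it changes the call. The file also calls the values batch corrected, and what this does to either fit was not tested. Relb was at 6.35 to 7.08 in RelB-KO and DKO against 10.49 to 10.84 in WT and Nfkb2-KO. Nfkb2 was at 12.31 to 12.80 in WT and RelB-KO, 8.75 and 8.79 in Nfkb2-KO, and 9.29 and 9.85 in DKO, so both DKO libraries held more Nfkb2 RNA than both Nfkb2-KO libraries. Foxp3 was at 13.95 to 14.28 in all libraries. Library WT replicate 1 stood apart in Xist, the transcript of the inactive X chromosome, at 8.17 against 14.61 to 15.13 in the others. Summed markers of B cells (5 of 5 in the table), on the un-logged scale, were at 151 to 177 in WT, 160 to 211 in RelB-KO, 195 to 206 in Nfkb2-KO and 214 to 224 in DKO, with Pax5 at 0. Summed Treg markers (5 of 5) were at 146000 to 148000 in WT, 149000 to 168000 in RelB-KO, 152000 in Nfkb2-KO and 177000 to 181000 in DKO. Taken singly in DKO against WT, 2 of 3 tested B cell markers were higher and 1 lower. Of 5 Treg markers, 3 were higher and 2 lower. Summed myeloid markers (6 of 7 in the table) were at 191 to 195 in WT and 176 to 228 in DKO. Summed CD8 T and NK markers (6 of 6) were at 703 to 865 in WT and 640 to 768 in DKO. Summed T cell markers (4 of 5) were at 38200 to 38300 in WT and 35100 to 37200 in DKO. The part of any of these in the results below was not tested.

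Egln3 and Pdk1, 2 genes that HIF is known to induce, had their lowest values of the series in the Nfkb2-KO libraries, -0.69 ± 0.09 and -0.70 ± 0.16 log2 units from WT. In DKO cells, whose Nfkb2 alleles are floxed as well, both were near the WT level, at 0.07 ± 0.09 and -0.01 ± 0.16. Against WT both were called only with the replicate block. Against RelB-KO and DKO, Egln3 was called with and without it and Pdk1 only with it. No other gene of the set was called in any comparison. Hk2, which encodes the hexokinase that traps glucose in growing cells, had higher values in both genotypes without Nfkb2, and did not pass the test in either. In bulk RNA, fewer cells of a type and less RNA per cell cannot be told apart, here or for any gene below.

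Against WT, limma called 0 of the 34 genes in each knockout, and the smallest adjusted p was 1 for RelB-KO, 0.0553 for Nfkb2-KO and 0.861 for DKO. The background was low as well: of all 13797 genes, 0.00725% were called for RelB-KO, 0.341% for Nfkb2-KO and 0.0145% for DKO. At an unadjusted p under 0.05, 0, 3 and 2 of the 34 genes passed for RelB-KO, Nfkb2-KO and DKO, where 1.24%, 10.7% and 5.18% of all genes did. With the replicate block, Egln3 and Pdk1 were called lower in Nfkb2-KO, where 1% of all genes were called lower, and no gene of the set was called in RelB-KO or DKO, where 0.0145% and 0.0652% of all genes were called. Leaving out WT replicate 1, the library with low Xist, leaves 1 WT library, so calls against WT are hard to reach there. Without it, Egln3 and Pdk1 differed from WT by -0.64 and -0.67 in Nfkb2-KO.

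Most differences from WT were small. The median over the 34 genes was 0.02 for RelB-KO, with 20 of 34 above 0, and 0.05 for Nfkb2-KO, with 21 above 0. It was 0.07 for DKO, with 23 above 0. All genes tested had medians within 0.01 of 0, with 51.8%, 50.4% and 50.7% above 0. In RelB-KO, 4 of the 34 genes lay wholly above WT and 3 wholly below, where 9.63% and 11% of all genes did. In Nfkb2-KO, 6 lay wholly above and 9 wholly below, where 21.6% and 20.9% of all genes did. In DKO, 7 lay wholly above and 5 wholly below, where 16.6% and 17.6% of all genes did. The 3 comparisons share the WT libraries. The sign was the same in both replicate numbers for 15 genes in RelB-KO, 25 in Nfkb2-KO and 24 in DKO. DKO replicate 2 stood higher than its partner: the median was 0.19 between the replicate 2 libraries of DKO and WT and 0.02 between the replicate 1 libraries. Without that library the DKO median was -0.02, without RelB-KO replicate 2 the RelB-KO median was -0.08, and without Nfkb2-KO replicate 2 the Nfkb2-KO median was -0.09. The plot of differences from WT shows this spread gene by gene.

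**Figure D1:**
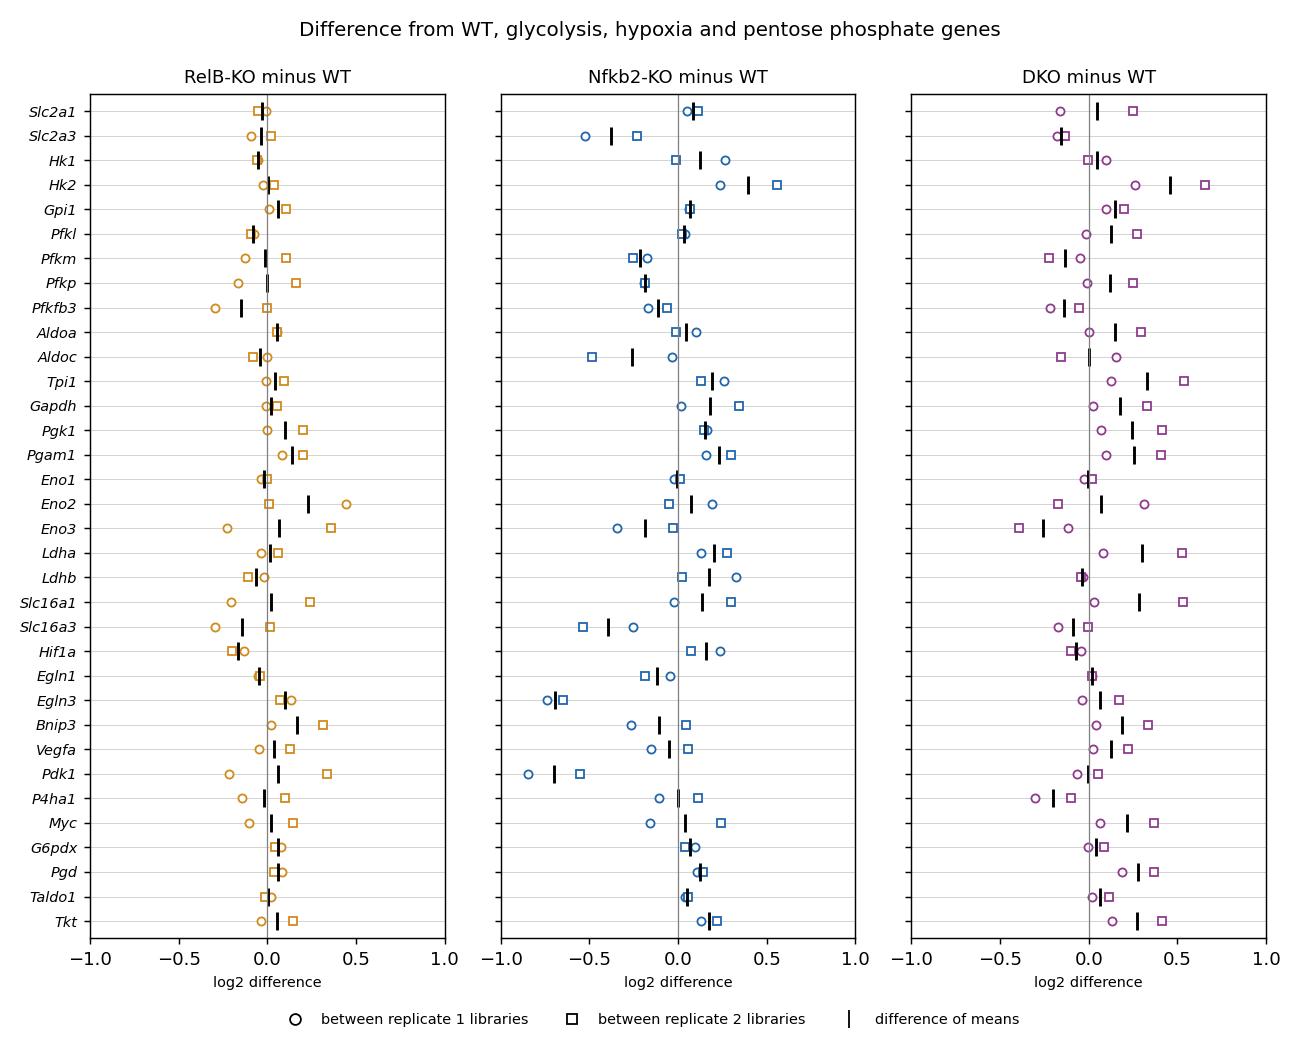
Log2 difference from WT (x axis) of the 34 genes (rows, in pathway order) in the 3 knockouts; open circles and squares are the differences between replicate 1 and between replicate 2 libraries, and bars the differences of the means of 2 libraries. Egln3 and Pdk1 lie near -0.70 in Nfkb2-KO and near 0 in DKO, and Hk2 lies at 0.40 and 0.46 in the genotypes without Nfkb2.

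Slc2a1 and Slc2a3 encode the glucose transporters GLUT1 and GLUT3. Slc2a3 was at 10.05 and 9.95 in WT, 9.95 and 9.97 in RelB-KO, 9.52 and 9.72 in Nfkb2-KO, and 9.87 and 9.82 in DKO. Both Nfkb2-KO libraries were below all 6 others, and the DKO libraries were also below WT, by less. The difference from WT was -0.38 ± 0.09 in Nfkb2-KO, with a limma adjusted p of 0.218 (0.0575 with the replicate block), and -0.16 ± 0.09 in DKO (adjusted p 0.861). The authors' deposited table gives Slc2a3 an adjusted p of 0.0195 for Nfkb2-KO, at a log2 fold change of -0.42. Slc2a1, by contrast, lay between 10.56 and 10.86 in all 8 libraries, and its differences from WT were -0.03, 0.08 and 0.05 in RelB-KO, Nfkb2-KO and DKO.

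The hexose phase of glycolysis, from glucose to the split of fructose bisphosphate, was represented by 9 genes. Hk2 was at 10.65 and 10.67 in WT, 10.62 and 10.71 in RelB-KO, 10.88 and 11.23 in Nfkb2-KO, and 10.91 and 11.33 in DKO. All 4 libraries without Nfkb2 were above all 4 with it, and in both of those genotypes replicate 2 was the higher library. The difference from WT was 0.40 ± 0.17 in Nfkb2-KO (limma adjusted p 0.471, 0.0847 with the block). In DKO it was 0.46 ± 0.17 (adjusted p 0.861, 0.206 with the block). Both rested in part on replicate 2: the differences were 0.22 without Nfkb2-KO replicate 2 and 0.25 without DKO replicate 2. In RelB-KO the difference was 0.01 ± 0.17, and DKO was 0.45 ± 0.17 above RelB-KO (adjusted p 1). In the authors' deposited table Hk2 passed in both genotypes, with an adjusted p of 0.0262 for Nfkb2-KO and 0.0237 for DKO.

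Pfkfb3, which makes the activator of phosphofructokinase, was at 11.01 and 10.86 in WT, 10.71 and 10.86 in RelB-KO, 10.84 and 10.80 in Nfkb2-KO, and 10.79 and 10.80 in DKO. WT replicate 1 was the highest of the 8, and the difference from WT was -0.15 ± 0.09 in RelB-KO, -0.11 ± 0.09 in Nfkb2-KO and -0.14 ± 0.09 in DKO, none called. The 3 phosphofructokinase subunit genes differed in sign in Nfkb2-KO, at -0.21 ± 0.12 for Pfkm, -0.19 ± 0.11 for Pfkp and 0.03 ± 0.10 for Pfkl, with adjusted p from 0.626 to 0.969. Pfkp was 0.31 ± 0.11 higher in DKO than in Nfkb2-KO (adjusted p 0.376, 0.134 with the block). The other 4 genes of this phase differed from WT by -0.26 (Aldoc, an aldolase, in Nfkb2-KO) to 0.15 (Aldoa, the main aldolase, and Gpi1, the phosphoglucose isomerase, in DKO). Hk1, the hexokinase most tissues use, differed by -0.05 ± 0.10, 0.12 ± 0.10 and 0.05 ± 0.10 in RelB-KO, Nfkb2-KO and DKO.

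The triose phase, from glyceraldehyde phosphate towards pyruvate, held 7 genes, and several of them differed more between replicate numbers than between genotypes. Gapdh, the dehydrogenase of this phase, was at 7.82 and 13.29 in WT, 7.81 and 13.35 in RelB-KO, 7.83 and 13.64 in Nfkb2-KO, and 7.84 and 13.62 in DKO. Every replicate 2 library was higher than every replicate 1 library, by 5.48 to 5.80 within genotypes. Gapdh was the only gene of the set with a difference of 2 or more in all genotypes, as 92 of 13797 genes had (0.667%). At a threshold of 1, Pgk1 (1.41 to 1.78) and Pgam1 (1.36 to 1.67), the kinase and mutase that act on phosphoglycerates, were added, making 3 of 34 against 1.45% of all genes. Ldha (0.43 to 0.87) and Gpi1 (0.41 to 0.52) also differed by at least 0.4 in every genotype, always with replicate 2 higher. The cutoff of 0.4 was not planned, and the share of all genes that reach it was not counted.

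All 5 of these genes have an annotated near-identical copy elsewhere in the genome, mostly a processed pseudogene. A copy here is another annotated gene that matches at least 300 bases at 95% identity or more in GENCODE M21 (GRCm38, the assembly that the name mm10 in the submitters' processing notes also stands for). Gapdh has 76 such copies, Pgk1 4, Ldha 3, and Pgam1 and Gpi1 1 each. In all, 9 of the 34 genes have a copy and 25 have none. How many genes outside the set have one was not counted. The mean replicate difference ranged from -0.01 to 5.65 with a median of 0.46 among the 9, and from -0.30 to 0.30 with a median of 0.02 among the 25. A read that falls within such a stretch does not tell the gene from its copies, and how the authors assigned these reads is not given in the sources used here. The following stretches of coding sequence, from the GENCODE M21 transcripts, show what is meant. The 50 bases of Gapdh (coding bases 415 to 464 of 1002) occur in transcripts of 83 other loci, and those of Pgam1 (coding bases 143 to 192 of 765) in 2.
Gapdh: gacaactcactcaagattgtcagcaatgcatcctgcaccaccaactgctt
Pgam1: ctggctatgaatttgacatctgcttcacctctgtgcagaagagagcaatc

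Of all 50-base windows of the gene's longest coding transcript, 82.49% were shared with another locus for Gapdh, 67.96% for Pgk1 and 41.48% for Pgam1. The share was 19.26% for Gpi1 and 16.65% for Ldha, and 0 for Egln3, Pdk1, Slc2a3 and Hk2. Ldhb (27.01%) and Bnip3 (21.91%) share more than Gpi1 and Ldha and did not have the pattern, with replicate differences from -0.14 to 0.16 and from -0.06 to 0.25. Eno1, the main enolase, shares 72.19%, and its row held 0.63 to 0.68 in all 8 libraries. A row that low cannot show whether the gene had the pattern. The row of its near-identical copy Eno1b differed between replicate numbers in the opposite direction, at 8.16 to 8.40 in replicate 1 and 5.63 to 5.74 in replicate 2. No genotype difference can be read from the Eno1 row. Of the 76 Gapdh copies, rows were found only for Gm12070, at 3.56 to 3.84, and Gm5069, at 2.86 to 2.94. They differed between replicate numbers by -0.26 to -0.17 and by 0.02 to 0.07. Both rows are low, where differences are understated, so their size cannot be set against that of Gapdh. Whether shared sequence accounts for the replicate differences was not tested, since the reads were not analysed here.

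**Figure D2:**
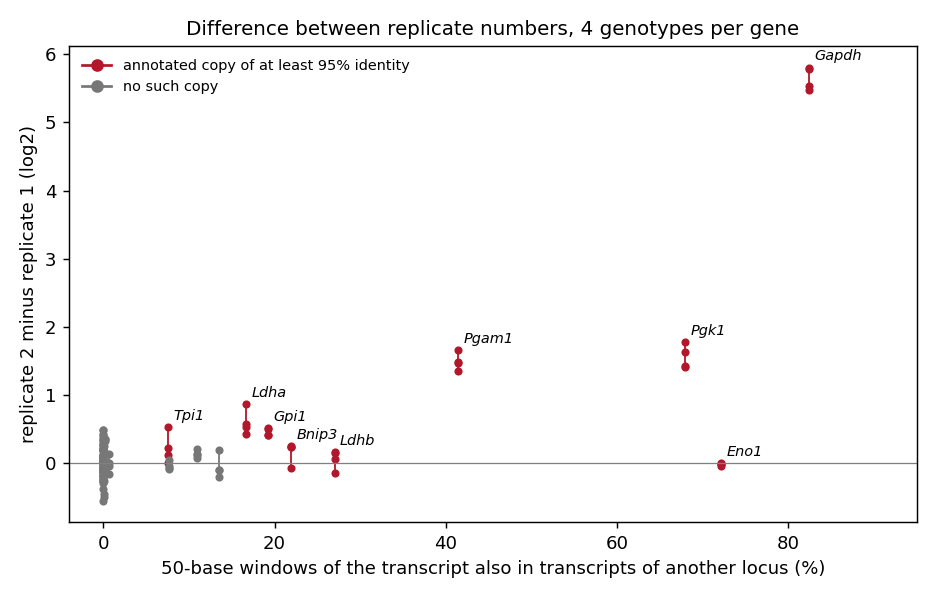
Replicate 2 minus replicate 1 (log2, y axis) in each of the 4 genotypes against the percentage of 50-base windows of the transcript that also occur at another locus (x axis), for the 34 genes; lines join the 4 genotypes of a gene, and red marks the 9 genes with an annotated copy of at least 95% identity. Gapdh lies above 5 and Pgk1 and Pgam1 above 1, while the 25 genes without a copy scatter around 0.

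Within replicate numbers, the genotypes were close for these genes. Gapdh differed from WT by 0.02 between the replicate 1 libraries and by 0.34 between the replicate 2 libraries in Nfkb2-KO, and by 0.03 and 0.33 in DKO. Its fitted difference of 0.18 ± 3.13 in both carries a large standard error because the model without the block counts the replicate difference as spread. Pgk1 and Pgam1 were higher than WT between both pairs in Nfkb2-KO and in DKO, at 0.07 to 0.41 for Pgk1 and 0.10 to 0.41 for Pgam1. With the block, their limma adjusted p was 0.438 and 0.228 in Nfkb2-KO and 0.355 and 0.319 in DKO.

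Tpi1, the triose isomerase, was at 11.66 and 11.79 in WT, 11.65 and 11.88 in RelB-KO, 11.92 and 11.92 in Nfkb2-KO, and 11.79 and 12.32 in DKO. DKO replicate 2 was the highest library and its partner lay within the range of WT. The difference from WT was 0.33 ± 0.18 in DKO (limma adjusted p 0.861, 0.314 with the block), and 0.06 without DKO replicate 2. Eno2, an enolase first known from neurons, was at 8.19 and 8.18 in WT, 8.64 and 8.19 in RelB-KO, 8.39 and 8.13 in Nfkb2-KO, and 8.51 and 8.01 in DKO. Its difference of 0.23 ± 0.21 from WT was the largest in size among the 34 genes in RelB-KO and came from replicate 1, at 0.44 against 0.01 between the replicate 2 libraries (adjusted p 1). Eno3, the muscle enolase, differed by -0.19 ± 0.20 in Nfkb2-KO and -0.25 ± 0.20 in DKO, neither called.

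Among the 5 genes that handle pyruvate and lactate, Pdk1 stood out. Pdk1 encodes pyruvate dehydrogenase kinase 1, which blocks pyruvate from entering the mitochondria as acetyl-CoA, and lies at chr2:71873224-71903858 on the plus strand (GENCODE M21, GRCm38). It was at 10.33 and 10.27 in WT, 10.12 and 10.61 in RelB-KO, 9.49 and 9.72 in Nfkb2-KO, and 10.27 and 10.32 in DKO. Both Nfkb2-KO libraries were below all 6 others, and the DKO libraries differed from their WT partners by -0.06 and 0.05. The difference from WT was -0.70 ± 0.16 in Nfkb2-KO, with a limma adjusted p of 0.221, and 0.0225 with the replicate block. DKO was 0.69 ± 0.16 above Nfkb2-KO (adjusted p 0.162, 0.0135 with the block), and Nfkb2-KO differed from RelB-KO by -0.76 ± 0.16 (adjusted p 0.138, 0.0106 with the block). Without WT replicate 1 the difference from WT in Nfkb2-KO was -0.67. Pdk1 passed in 3 comparisons with the block and in none without it. In the authors' deposited table its log2 fold change in Nfkb2-KO was -0.72, with an adjusted p of 5.97e-05.

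Ldha, the lactate dehydrogenase subunit that favours lactate, was at 13.57 and 14.00 in WT, 13.54 and 14.06 in RelB-KO, 13.70 and 14.28 in Nfkb2-KO, and 13.65 and 14.53 in DKO. Replicate 2 was higher in every genotype and DKO replicate 2 was the highest library. The difference of 0.30 ± 0.35 between DKO and WT (adjusted p 0.938, 0.318 with the block) turned to -0.13 without that library. Slc16a1, which encodes the lactate transporter MCT1, was at 11.28 and 11.04 in WT, 11.08 and 11.28 in RelB-KO, 11.26 and 11.34 in Nfkb2-KO, and 11.31 and 11.57 in DKO. Both DKO libraries were above both WT libraries, by 0.28 ± 0.13 on average, and by 0.03 and 0.53 within replicate numbers (adjusted p 0.861). Slc16a3, which encodes MCT4, the exporter of highly glycolytic cells, was at 9.43 and 9.17 in WT, 9.13 and 9.18 in RelB-KO, 9.18 and 8.63 in Nfkb2-KO, and 9.26 and 9.16 in DKO. Nfkb2-KO replicate 2 was the lowest library and replicate 1 lay within the range of WT. The difference in Nfkb2-KO was -0.39 ± 0.18 (adjusted p 0.534, 0.151 with the block), and -0.12 without Nfkb2-KO replicate 2. Ldhb, the other dehydrogenase subunit, differed by 0.18 ± 0.10 from WT in Nfkb2-KO and by -0.04 ± 0.10 in DKO, neither called.

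The hypoxia pathway was represented by 6 genes: the sensor genes Egln1 and Egln3, the subunit gene Hif1a, and the targets Bnip3, Vegfa and P4ha1. Egln3, at chr12:54178981-54203860 on the minus strand, was at 8.61 and 8.51 in WT, 8.74 and 8.58 in RelB-KO, 7.87 and 7.86 in Nfkb2-KO, and 8.57 and 8.68 in DKO. The Nfkb2-KO libraries were nearly equal and lay below all 6 others, which ranged from 8.51 to 8.74. Limma called Egln3 lower in Nfkb2-KO than in RelB-KO, at a difference of -0.80 ± 0.09 (adjusted p 0.0217), where 0.138% of all genes were called lower. It was called higher in DKO than in Nfkb2-KO, by 0.76 ± 0.09 (adjusted p 0.0275), where 0.123% of all genes were called higher. Nfkb2 RNA was also higher in both DKO libraries than in both Nfkb2-KO libraries, as given above, and its part in this difference was not tested. Against WT the difference was -0.69 ± 0.09, just outside the threshold at an adjusted p of 0.0553, and inside it at 0.00656 with the replicate block. The difference held within both replicate numbers, at -0.74 and -0.65, and was -0.64 without WT replicate 1. In RelB-KO and DKO, Egln3 differed from WT by 0.10 ± 0.09 and 0.07 ± 0.09. The authors' deposited table gives -0.87 for Nfkb2-KO, with an adjusted p of 2.71e-06.

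With 1 library left out, 3 residual degrees of freedom remain and the calls are harder to reach. The difference between DKO and Nfkb2-KO then stayed between 0.71 and 0.81, with adjusted p from 0.0496 to 0.188, and kept its call only without RelB-KO replicate 1 or RelB-KO replicate 2. Leaving out either WT library gave 0.0656 and 0.0662, leaving out Nfkb2-KO replicate 1 or 2 gave 0.178 and 0.129, and leaving out DKO replicate 1 or 2 gave 0.114 and 0.188. Between Nfkb2-KO and RelB-KO the difference stayed between -0.88 and -0.71 and was called in 0 of the 8 cases, at adjusted p from 0.0534 to 0.145. The difference of differences, which takes RelB-KO minus WT from DKO minus Nfkb2-KO, tests whether loss of Relb acted otherwise without Nfkb2 than with it. For Egln3 it was 0.66 ± 0.13 (adjusted p 0.454, 0.0865 with the block) and for Pdk1 0.63 ± 0.23 (adjusted p 1, 0.213 with the block). Limma called 0 of the 34 genes in this test with or without the block, and 2 had an unadjusted p under 0.05, where 4.45% of all genes did. Of all genes, 0.00725% were called, and 0.471% with the block. It is therefore not shown that the effect of Relb loss on either gene depends on Nfkb2.

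**Figure D3:**
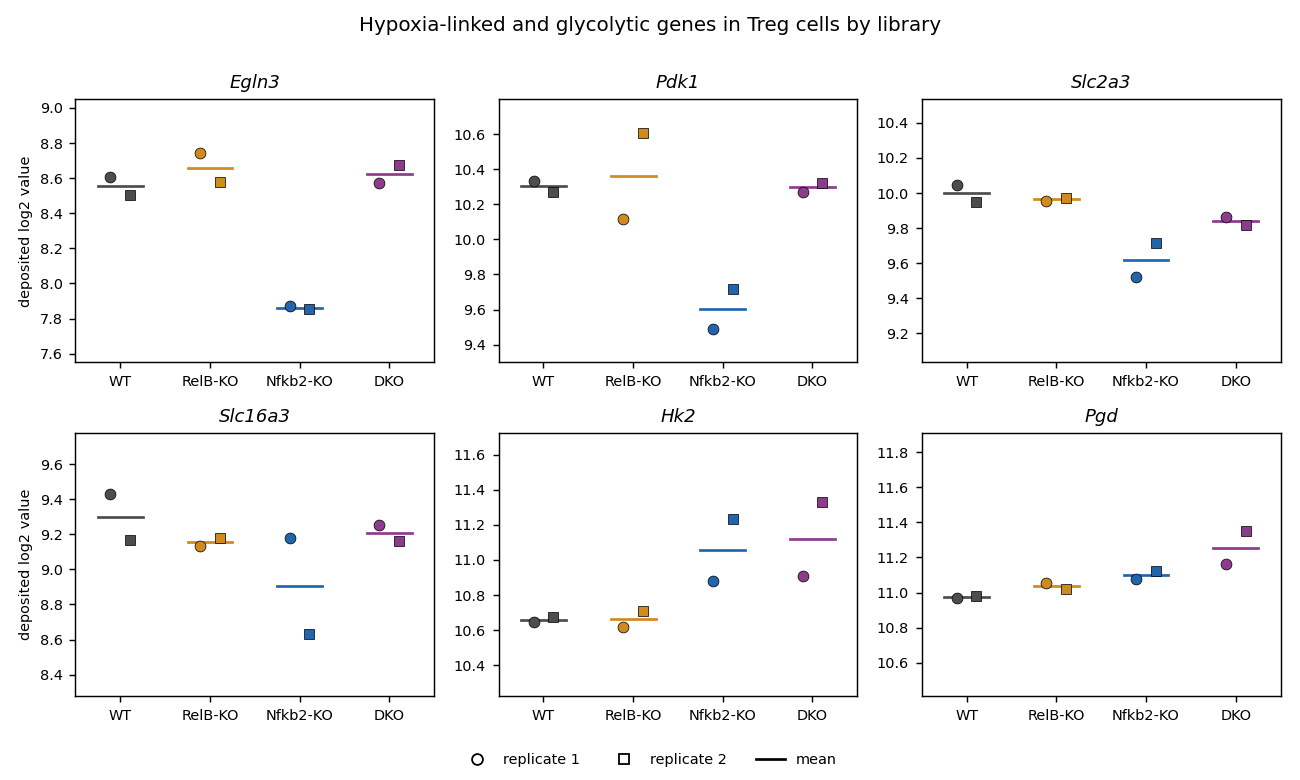
Deposited log2 values (y axis, a separate range in each panel) of 6 genes in the 8 libraries; circles are replicate 1, squares replicate 2 and lines the mean of 2 libraries. Egln3 and Pdk1 are lowest in Nfkb2-KO, Slc2a3 and Slc16a3 have their lowest library there, and Hk2 is higher in Nfkb2-KO and DKO than in WT and RelB-KO.

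None of the other 5 hypoxia genes was called in any comparison. Hif1a was at 14.48 and 14.36 in WT, 14.35 and 14.16 in RelB-KO, 14.72 and 14.43 in Nfkb2-KO, and 14.44 and 14.26 in DKO. Both RelB-KO libraries were below both WT libraries, at a difference of -0.16 ± 0.14, and Nfkb2-KO was 0.32 ± 0.14 above RelB-KO, with a limma adjusted p of 0.446 (0.0652 with the block). HIF protein, which is controlled mainly by its destruction, was not measured. Bnip3, which encodes a mitochondrial protein that promotes mitophagy, was at 6.78 and 6.72 in WT, 6.81 and 7.04 in RelB-KO, 6.52 and 6.77 in Nfkb2-KO, and 6.82 and 7.06 in DKO. Its difference from WT was 0.17 ± 0.14 in RelB-KO, -0.11 ± 0.14 in Nfkb2-KO and 0.19 ± 0.14 in DKO, and DKO was 0.30 ± 0.14 above Nfkb2-KO (adjusted p 0.574, 0.168 with the block). Egln1, the most widely used HIF prolyl hydroxylase, lay at 10.57 to 10.77 in all libraries and differed by -0.12 ± 0.08 in Nfkb2-KO. Vegfa, the endothelial growth factor, lay at 5.45 to 5.98, and its largest difference from WT was 0.12 ± 0.18, in DKO. P4ha1, a collagen prolyl hydroxylase subunit, was -0.20 ± 0.09 from WT in DKO (adjusted p 0.861) and 0.003 ± 0.09 in Nfkb2-KO.

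The bases before the starts of Egln3 and Pdk1 are shown because these are the genes that were called and both are known HIF targets. Sequences are from RefSeq (GRCm38.p6) and read 5′ to 3′ on the gene's strand, for the 250 bases up to the start, at chr12:54203875-54204124 (minus strand) and chr2:71872974-71873223 (plus strand). Capitals mark the core of the hypoxia response element, ACGTG or GCGTG, searched on both strands.
Egln3: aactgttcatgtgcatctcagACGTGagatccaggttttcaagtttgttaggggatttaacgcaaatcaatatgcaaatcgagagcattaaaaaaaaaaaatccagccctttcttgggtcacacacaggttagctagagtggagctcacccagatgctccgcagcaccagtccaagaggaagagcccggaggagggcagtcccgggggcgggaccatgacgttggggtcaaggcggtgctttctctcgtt
Pdk1: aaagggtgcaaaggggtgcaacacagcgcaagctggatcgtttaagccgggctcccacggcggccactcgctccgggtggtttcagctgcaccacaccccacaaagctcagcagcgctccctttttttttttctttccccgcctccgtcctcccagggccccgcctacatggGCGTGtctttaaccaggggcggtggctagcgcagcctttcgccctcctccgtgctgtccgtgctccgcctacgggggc

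In the full windows, which run from 250 bases before to 50 after the start, Egln3 had 1 match and Pdk1 had 2, the second of them across the start and not shown whole. Windows were matched for 33 of the 35 listed genes, and not for Slc2a3 and Myc. Of the 33, 26 (78.8%) held ACGTG or GCGTG, against 43.8% of all 32851 RefSeq windows, some of which belong to the same gene. The E-box CACGTG, which contains ACGTG and is read by MYC, was in 5 of 33 (15.2%) against 7.2% of all windows. Base composition of the windows was not matched. A match is a string of letters and not a measured binding site, and most genes with a match in this set were not called in any comparison.

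Myc was at 12.72 and 12.75 in WT, 12.62 and 12.90 in RelB-KO, 12.56 and 13.00 in Nfkb2-KO, and 12.79 and 13.12 in DKO. DKO replicate 2 was the highest library, and the Nfkb2-KO libraries spanned the WT range. Differences from WT were 0.02 ± 0.18 in RelB-KO, 0.04 ± 0.18 in Nfkb2-KO and 0.22 ± 0.18 in DKO, with limma adjusted p of 1, 0.983 and 0.897 and no call with the block.

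The 4 pentose phosphate genes had positive differences from WT in all 3 knockouts, which share the WT libraries, and none was called. In RelB-KO the differences were only 0.004 to 0.06, and Taldo1 and Tkt differed in sign between the replicate numbers. Of 10 other pentose phosphate and ribose genes tested, 3 were above WT in RelB-KO, 6 in Nfkb2-KO and 8 in DKO. Pgd, which encodes the second NADPH-making enzyme of the oxidative branch, was at 10.97 and 10.98 in WT, 11.05 and 11.02 in RelB-KO, 11.08 and 11.12 in Nfkb2-KO, and 11.16 and 11.35 in DKO. The 2 WT libraries were the lowest, and the DKO libraries were the highest. The difference from WT was 0.28 ± 0.08 in DKO (adjusted p 0.861, 0.249 with the block) and 0.13 ± 0.08 in Nfkb2-KO. Tkt, the transketolase of the non-oxidative branch, was 0.27 ± 0.16 from WT in DKO and 0.18 ± 0.16 in Nfkb2-KO, with adjusted p of 0.861 and 0.79. G6pdx, the entry enzyme, and Taldo1, the transaldolase, were within 0.07 of WT in every knockout. Medians over the 4 genes were 0.06 in RelB-KO, 0.10 in Nfkb2-KO and 0.17 in DKO. The DKO median over all 34 genes was near 0 without DKO replicate 2, as given above, and the Pgd difference was 0.18 without it.

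Comparisons among the knockouts share libraries with those against WT, so their values are given side by side. In DKO against Nfkb2-KO, limma called 1 of 34 genes higher (Egln3) and 0 lower, and 9 lay wholly above and 2 wholly below, where 17.4% and 17.8% of all genes did. In Nfkb2-KO against RelB-KO, 1 was called lower (Egln3) and 0 higher, and 9 lay wholly above and 7 wholly below, where 20.9% and 21.1% of all genes did. In both comparisons the block added Pdk1. It called 2.07% of all genes higher in DKO than in Nfkb2-KO and 1.67% lower in Nfkb2-KO than in RelB-KO. In DKO against RelB-KO, 0 of 34 were called where 0.00725% of all genes were, 2 had an unadjusted p under 0.05 (Hk2 and Pgd) where 2.88% of all genes did, and the block called 0, where 0.0145% of all genes were called. In that comparison 26 of 34 differences were above 0, at a median of 0.08, against 49.7% of all genes, and 6 lay wholly above and 2 wholly below, where 13.2% and 14.3% of all genes did. Eno1, whose row cannot be read for genotype, is among those wholly above RelB-KO in both Nfkb2-KO and DKO, at 0.01 in each.

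Genes of the same pathways outside the set were listed alongside, also with earlier results known. Of 33 other hypoxia genes tested, 0 were called by limma against WT in any knockout, and 2, 6 and 3 had an unadjusted p under 0.05 in RelB-KO, Nfkb2-KO and DKO, where 1.24%, 10.7% and 5.18% of all genes did. Arnt2, which encodes a partner subunit for HIF alpha, was at 9.00 and 9.52 in WT, 8.63 and 8.65 in RelB-KO, 9.99 and 9.69 in Nfkb2-KO, and 8.67 and 8.65 in DKO. Both Nfkb2-KO libraries were the highest and the 4 libraries without Relb were the lowest. It was called higher in Nfkb2-KO than in RelB-KO, by 1.20 ± 0.18 (adjusted p 0.0465), and was -1.18 ± 0.18 in DKO against Nfkb2-KO (adjusted p 0.0512, 0.00469 with the block). Bhlhe40, a HIF-induced repressor, was at 12.47 and 12.05 in WT, 12.31 and 11.46 in RelB-KO, 13.62 and 13.25 in Nfkb2-KO, and 11.94 and 11.38 in DKO. Both Nfkb2-KO libraries were above all others, by 1.17 ± 0.33 over WT (adjusted p 0.285, 0.00157 with the block). Adm, which encodes the HIF target adrenomedullin, was at 5.23 and 5.07 in WT, 5.22 and 5.04 in RelB-KO, 5.57 and 5.53 in Nfkb2-KO, and 5.26 and 5.04 in DKO. It was likewise highest in both Nfkb2-KO libraries, by 0.40 ± 0.11 over WT (adjusted p 0.267, 0.0247 with the block). Ccng2, a cyclin induced by hypoxia, had its lowest mean in Nfkb2-KO, at -0.59 ± 0.17 from WT (adjusted p 0.301, 0.0193 with the block). With the block, Egln3, Pdk1 and Ccng2 were called lower in Nfkb2-KO than in WT, and Bhlhe40 and Adm higher. Of the 33 other hypoxia genes the block called 2 higher and 1 lower there. Of all 13797 genes it called 402, of which 138 were lower. The part of HIF in these differences was not tested. Hif3a, known mainly as an inhibitory alpha subunit, was 0.40 ± 0.08 higher in DKO than in Nfkb2-KO (adjusted p 0.105, 0.0231 with the block). Mxi1, also on this list, was -0.53 ± 0.17 in Nfkb2-KO against RelB-KO (adjusted p 0.285, 0.0494 with the block).

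**Figure D4:**
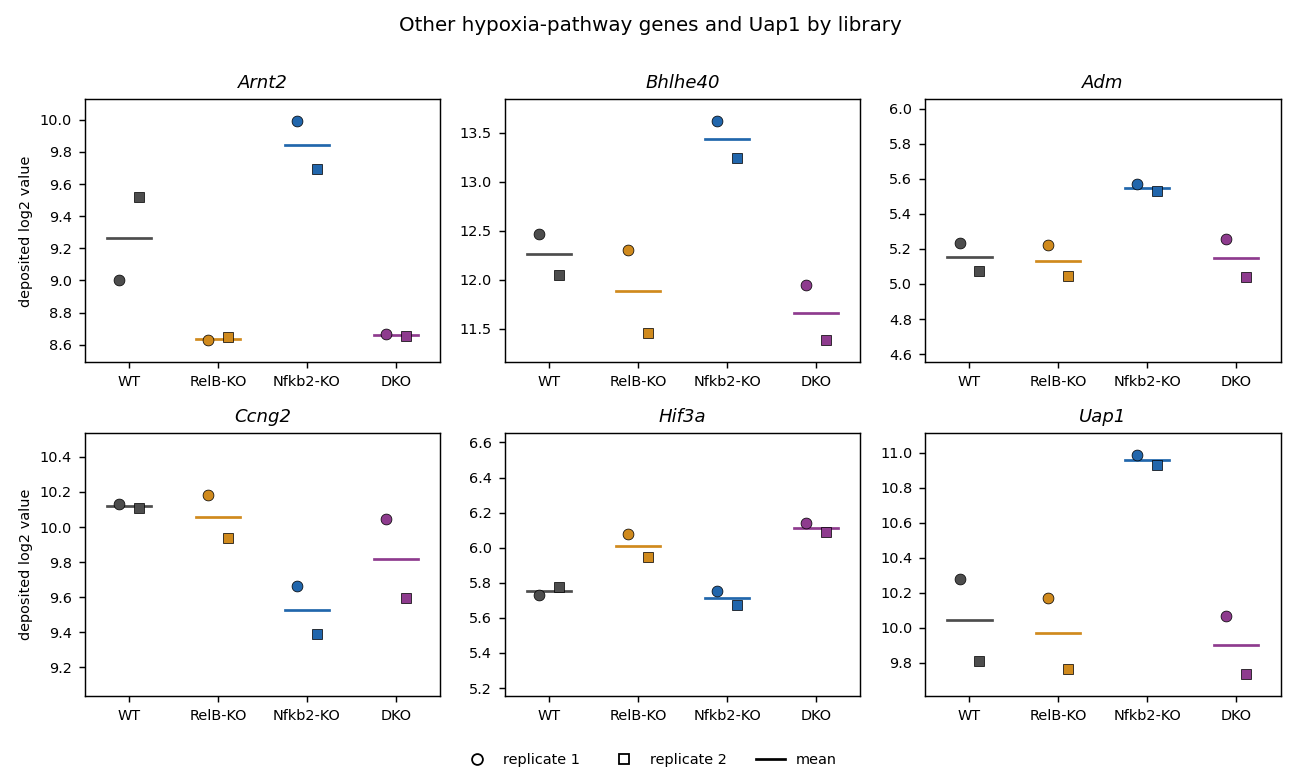
Deposited log2 values (y axis, a separate range in each panel) of 5 hypoxia genes outside the set and the hexosamine gene Uap1 in the 8 libraries; circles are replicate 1, squares replicate 2 and lines the mean of 2 libraries. Arnt2, Bhlhe40, Adm and Uap1 are highest in the Nfkb2-KO libraries, where Egln3 and Pdk1 are lowest.

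The other lists gave few calls. In the hexosamine branch, which draws sugar phosphate from glycolysis, 7 genes were tested, and Uap1, which makes its end product UDP-GlcNAc, was at 10.28 and 9.81 in WT, 10.17 and 9.76 in RelB-KO, 10.99 and 10.93 in Nfkb2-KO, and 10.07 and 9.73 in DKO. Both Nfkb2-KO libraries were above all 6 others, by 0.92 ± 0.21 over WT (limma adjusted p 0.21, 0.00278 with the block). Among 27 other glycolysis and glucose handling genes, 0 were called without the block, and 0, 2 and 3 had an unadjusted p under 0.05 in RelB-KO, Nfkb2-KO and DKO against WT. In DKO against Nfkb2-KO and in Nfkb2-KO against RelB-KO, 2 and 3 did, where 9.86% and 11.9% of all genes did. With the block, and its standard errors, Txnip, an arrestin-like protein that restrains glucose uptake, was -0.75 ± 0.16 in Nfkb2-KO against RelB-KO (adjusted p 0.031). Gpd1l was 0.38 ± 0.09 in DKO against Nfkb2-KO in the same fit (adjusted p 0.0402). Of 18 other MYC network genes, which do not include Mxi1, only Mxd4, a MYC antagonist, was called with the block. In that fit it was -0.42 ± 0.09 in Nfkb2-KO against WT (adjusted p 0.0487) and -0.40 ± 0.09 against RelB-KO (adjusted p 0.0494). Neither the 10 genes of pyruvate entry to mitochondria nor the 10 other pentose phosphate and ribose genes had a call with or without the block, and at most 1 and 2 of them had an unadjusted p under 0.05 in any comparison, where 1.24% to 11.9% of all genes did.

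The authors' own comparisons, on their scale, gave more calls. Their deposited table called 0 of 33 genes of the set with an adjusted p for RelB-KO, where 0.119% of all genes were called. It gives Eno1 no adjusted p. For Nfkb2-KO it called 4 of 33, Hk2 higher and Egln3, Pdk1 and Slc2a3 lower, where 3.49% of all genes were called higher and 2.73% lower. For DKO the authors' deposited table called 1 of 33, Hk2 higher, where 0.593% of all genes were called higher.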

How the data were processed

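RNA of 8 stimulated Treg libraries, 2 for each of 4 genotypes, was measured by RNA sequencing at 30 M reads per sample, per the labels; the depth of each library as sequenced is unknown, so no counting interval is given. The deposited log2 values are called log2 RPKM, batch corrected, per the file headers; how the batch was corrected is not given in the sources used here. The authors also deposited log2 fold changes with p-values and adjusted p-values for each knockout against WT. STAR, DESeq2 1.10.1 and mm10 are named without roles, per the submitters' processing notes. The 8 columns of deposited z-scores were not used.

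Of 22432 genes, 6247 were listed at 0 in all libraries and 1 had a blank cell, and these were left out; 25 symbols had become dates. A filter on the un-logged mean, at least 1, left 13797 genes, which were tested with limma 3.58.1 in R 4.3.3, on the log2 values as deposited since they were already logged. One linear model held the 4 genotypes over 8 libraries (4 residual degrees of freedom, moderated with a trend), with Benjamini-Hochberg adjustment per comparison. In 6 comparisons and the difference of differences, genes were called at an adjusted p under 0.05. Checked for pairing, the difference between replicate numbers correlated across genes between genotypes at 0.81 to 0.89 in all 6 pairs, so a fit with replicate number as a block (3 residual degrees of freedom) was run as an alternative. Copies of the genes were searched with BLAST 2.17.0 among GENCODE M21 transcripts, and shared 50-base windows and promoter motifs were counted in Python 3.11.15.

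The genes and lists were chosen with earlier results of these data known. Values of every library are given for genes called with or without the block, genes that differ by 2 or more between replicate numbers in all genotypes, and the 5 largest differences from WT in each knockout; other genes are given by ranges, with examples per role. Myc, and the genes of other lists shown by library, were added to these after their values were seen. Library preparation with the TruSeq kit does not mark strand as far as the labels say, so genes that overlap an exon of another gene, such as Hk1, Pfkm, Pfkp, Tpi1, Hif1a and G6pdx, may hold reads of it; Egln3, Pdk1, Slc2a3 and Hk2 overlap none.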

Additional observations from a re-analysis of the deposited data

How the results depend on the processing

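With the replicate block, limma called 2 of all genes for RelB-KO against WT, 402 for Nfkb2-KO against WT, 9 for DKO against WT, 693 for DKO against Nfkb2-KO, 2 for DKO against RelB-KO and 615 for Nfkb2-KO against RelB-KO, against 1, 47, 2, 106, 1 and 110 without it. Of the 34 genes the block called 2 (Egln3 and Pdk1) where 0, 1 and 1 were called in Nfkb2-KO against WT, DKO against Nfkb2-KO and Nfkb2-KO against RelB-KO, and changed no other call among them. A fit with only the 2 groups compared called 1 gene for Nfkb2-KO against WT, 0 for DKO against WT, 13 for DKO against Nfkb2-KO, 0 for DKO against RelB-KO and 13 for Nfkb2-KO against RelB-KO, and 0 of the 34; Egln3 then had an adjusted p of 0.135 in DKO against Nfkb2-KO and 0.149 in Nfkb2-KO against RelB-KO. Without the filter on low values 20 genes were called for Nfkb2-KO against WT and 0 for DKO against RelB-KO, and 0 for the latter with a stricter filter of 16. Quantile normalization took the Nfkb2-KO median of the 34 genes to 0.002. A threshold of 1 between replicate numbers took the count from 1 to 3. Leaving out each library in turn gave 1 to 12 genes for RelB-KO against WT, 0 to 29 for Nfkb2-KO against WT, 1 to 13 for DKO against WT, 8 to 58 for DKO against Nfkb2-KO, 0 to 2 for DKO against RelB-KO and 9 to 55 for Nfkb2-KO against RelB-KO. Of the 34 it called 0 to 1 in DKO against Nfkb2-KO and 0 in the others. The median of the 34 ranged from -0.084 to 0.045 for RelB-KO, -0.089 to 0.047 for Nfkb2-KO and -0.018 to 0.176 for DKO. Signs reversed for Egln3 in DKO against RelB-KO (-0.12 to 0.046; 0.015 without DKO replicate 1), for Pdk1 in RelB-KO against WT (-0.19 to 0.30), DKO against WT (-0.037 to 0.026; 0.021 without DKO replicate 1) and DKO against RelB-KO (-0.31 to 0.18), and for Ldha in DKO against WT (-0.13 to 0.74). Gapdh ran from -2.74 to 2.79 in RelB-KO, -2.72 to 3.08 in Nfkb2-KO and -2.71 to 3.06 in DKO against WT, and was -2.71, -2.56 and -2.56 without WT replicate 1, since leaving out 1 library of a genotype leaves the replicate numbers unbalanced between the genotypes compared. Where a genotype had 1 library left, it was assumed to vary like the others. The depth of the libraries was not analysed here, so no limit from counting can be given, and 2 libraries per genotype limit every comparison.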
